A study of Mus musculus with 6 samples.

Results

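Albumin and the other major carrier proteins of plasma are made by hepatocytes, and their transcripts were followed here in liver RNA from mice with sickle cell disease. The genes were chosen by symbol from the count tables: Alb, Gc, Ahsg, Fetub, Ttr, Rbp4, Ambp and Sepp1, the older symbol of Selenop. All 8 were among the 24421 genes listed, and all 8 were among the 12622 with enough counts to test. SS mice, per the strain label, carry Hbatm1(HBA)Tow and the Hbbtm2(HBG1,HBB*)Tow allele, which put human alpha-globin, human gamma-globin and sickle beta-globin genes in place of the mouse globin genes. AS mice, the comparison group, carry Hbatm1(HBA)Tow with Hbbtm2(HBG1,HBB*)Tow on one chromosome and Hbbtm3(HBG1,HBB)Tow, with normal human beta-globin, on the other. Each genotype had 3 liver libraries of total RNA at 7 months of age. Both genotypes carry the humanised alpha-globin locus and at least one sickle allele, so neither stands for a mouse with its own globin genes. The labels give no sex and do not say whether the replicates are separate animals, so every p-value reflects the variation among these libraries alone, which may be technical.

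Carrier proteins keep poorly soluble or toxic molecules in solution in plasma and deliver them to tissues. Albumin binds fatty acids, unconjugated bilirubin, heme and many drugs, and it supplies most of the oncotic pressure of plasma. Albumin, transthyretin, retinol binding protein and, in humans, fetuin-A are known as negative acute phase proteins, whose synthesis falls in inflammation while that of serum amyloid A rises.

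SS libraries held 6971289 to 13700194 reads in genes, and AS libraries held 6670011 to 12658869. The label of liver fitted the data. Of 20 listed hepatocyte genes outside the carriers, 19 had enough counts to test, all but Ass1. Those tested summed to 42760 to 47990 CPM (read counts scaled to library size) in SS and 58670 to 75940 CPM in AS. Of 10 listed markers of pancreatic acinar cells only 2, Cela1 and Cela2a, had enough counts to test. Their sum was 9.86 to 23.2 CPM in SS and 26.7 to 36.6 CPM in AS. Among the untested markers, Cpa1 and Amy2a5 were at 0 in every library. The libraries were uneven within a genotype. SS replicate 3 stood apart in transcripts of short genes, as given with the library patterns further on. AS replicates 2 and 3 resembled each other most, with a chi-square per gene of 3.60, where the remaining pairs gave 22.3 to 131.6. In the carriers the largest difference between AS replicates 2 and 3 was 0.13 on the log2 scale, against 0.34 to 1.93 in the other pairs.

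Of the 8 carrier genes, none was called between SS and AS livers by edgeR's quasi-likelihood test at a Benjamini-Hochberg adjusted p under 0.05 over all genes tested. Nor did any reach an unadjusted p under 0.05 in edgeR, and DESeq2 and limma-voom each called 0 of 8, where they called 0.738% and 0.00792% of all genes lower in SS. The call rate over all genes was 0.967%, with 0.911% called higher and 0.0555% called lower in SS, and 3.58% had an unadjusted p under 0.05 with a lower value in SS. The fitted value of every carrier was lower in SS, with log2 changes (SS over AS) from -0.69 for Ttr to -0.23 for Alb and a median of -0.43, against a median of 0.08 over all genes tested. Other abundant genes had lower fitted values too. Among the 268 other genes that averaged 500 CPM or more, 86.6% had a lower fitted value in SS and the median log2 change was -0.49, while over all genes 43.7% were lower. In the plot of fold change against level, the 8 carriers lie among other transcripts of their abundance. In bulk liver, fewer hepatocytes and less RNA per hepatocyte cannot be told apart.

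**Figure D1:**
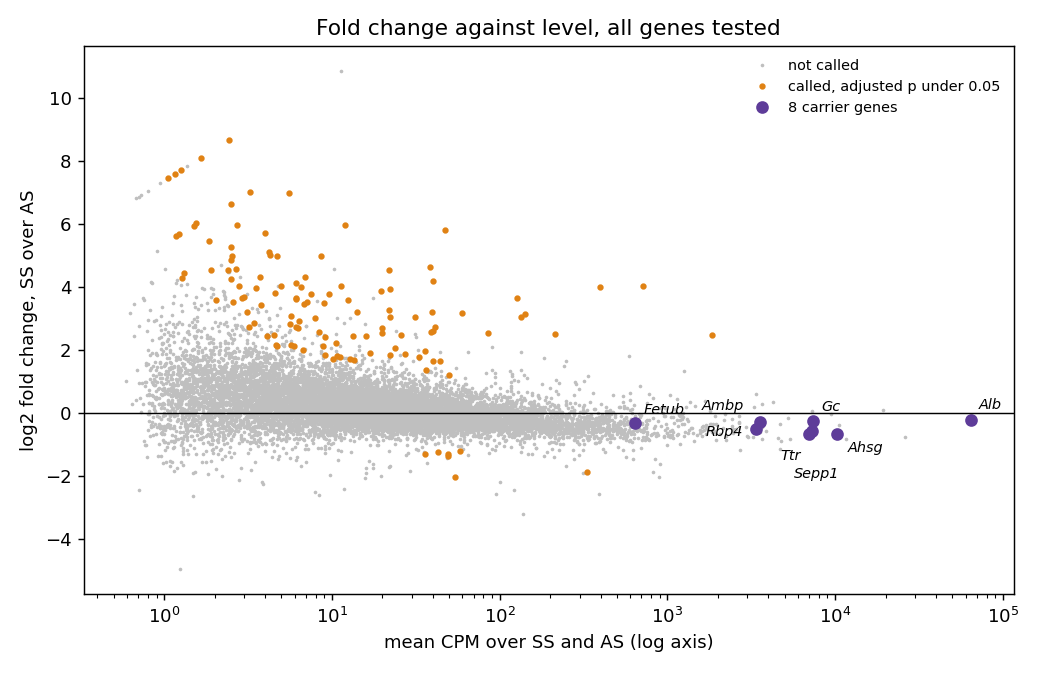
Log2 fold change of SS over AS (vertical axis) against mean CPM on a log axis (horizontal), 1 point for each of 12622 genes tested. Called genes are orange and the 8 carriers purple; the carriers lie between -0.69 and -0.23 at the abundant end, where most genes lie below 0.

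The direction of the albumin difference depended on the scaling. With trimmed-mean (TMM) factors, which were 1.01 to 1.21 in SS and 0.83 to 0.97 in AS, Alb averaged lower in SS; as a plain share of gene reads it made up 6.50% ± 1.14 in SS and 6.32% ± 0.6999 in AS (SD, n = 3 each). With library totals alone the log2 change of Alb was 0.04, but the median of all genes moved from 0.08 to 0.36 as well, so relative to that median Alb stood at -0.31 with TMM factors and -0.32 with totals. The other 7 carriers kept a value below 0 with totals alone, at -0.43 to -0.01. The 8 transcripts together took 8.97%, 11.6% and 9.46% of gene reads in SS replicates 1, 2 and 3, and 12.2%, 9.74% and 9.61% in AS replicates 1, 2 and 3. The groups overlapped, and the means were 9.998% ± 1.38 in SS and 10.5% ± 1.44 in AS. The widest Wilson 95% interval of these shares, 9.72% to 9.76% in AS replicate 2, covers counting error only.

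**Figure D2:**
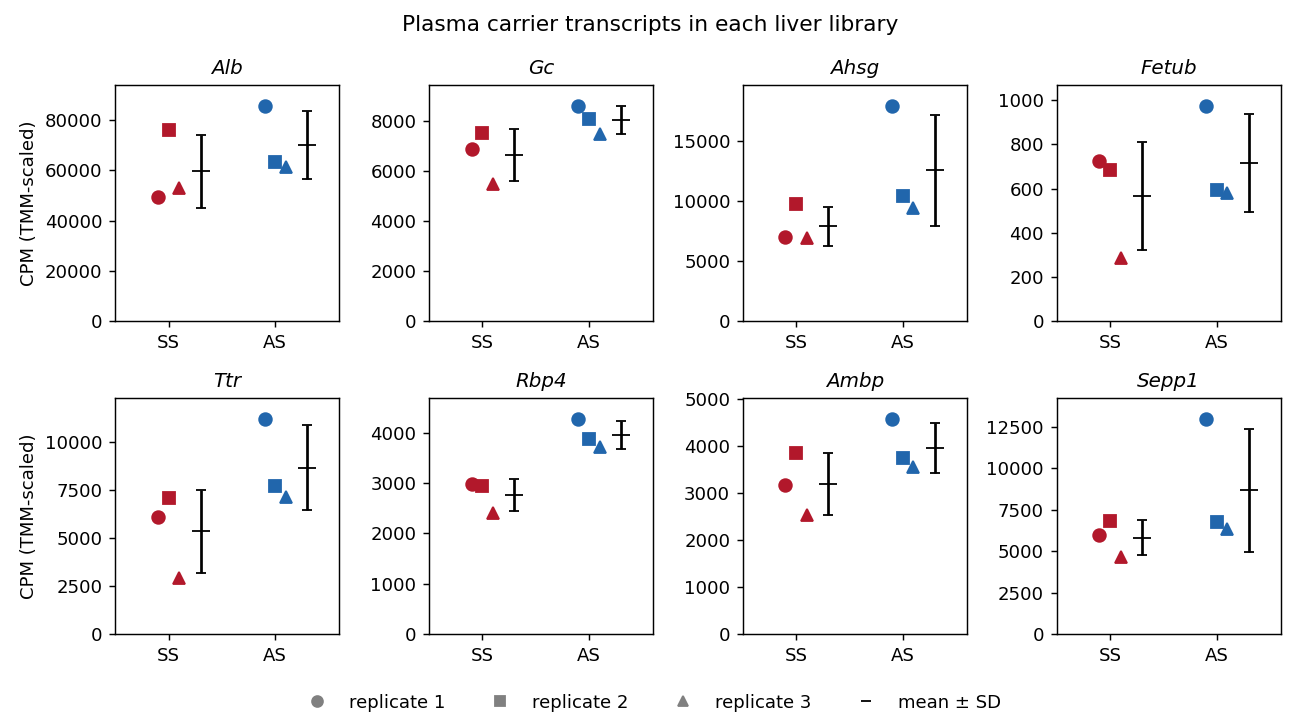
CPM with TMM factors (vertical axes from 0, 1 scale per gene) of the 8 carriers in each of 3 SS (red, left) and 3 AS (blue, right) libraries; marker shapes give the replicate and black bars the mean ± SD. AS replicate 1 is the highest point in all 8 panels, and SS replicate 3 is the lowest in 7.

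Levels of different genes were set side by side per kilobase of exon. Dividing by length does not remove the low values of short transcripts in SS replicate 3, given further on. On that scale (CPM per kilobase) Alb led, at 25485 ± 6181 in SS and 29928 ± 5733 in AS, above every other carrier in all 6 libraries. Ttr came next at 4523 ± 1824 in SS and 7312 ± 1856 in AS, then Ahsg at 3603 ± 741 in SS and 5732 ± 2107 in AS, and Gc at 3596 ± 566 in SS and 4362 ± 303 in AS (SD, n = 3 each). Ambp, Rbp4 and Sepp1 followed closely, with means of 2261, 2064 and 2044 in SS and 2806, 2946 and 3056 in AS, and Fetub was lowest at 289 ± 123 in SS and 364 ± 113 in AS. In SS the neighbours Ttr and Ahsg, Ahsg and Gc, Ambp and Rbp4, and Rbp4 and Sepp1 overlapped between libraries. In AS every step between Ttr and Ambp overlapped. Alb ranked 1 of all genes tested by mean CPM, Ahsg 6, Gc 8, Sepp1 10, Ttr 12, Ambp 24, Rbp4 29 and Fetub 192.

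Albumin and the vitamin D binding protein belong to 1 gene family on chromosome 5. Alb (90460897 to 90476602, plus strand, mm10) is followed by its relatives Afp, 14.1 kb away, and Afm, while Gc (89417522 to 89457898, minus strand) lies 1003 kb from Alb. The 120 bases before the RefSeq start (GRCm38.p6) are shown for Alb and Gc, and for Ahsg of the fetuin pair, 3 carriers with a single listed start and no GENCODE exon in that window, to show which liver factor motifs they share. Capitals mark matches, on either strand, to 4 motifs. They are the core of an HNF1 site (GTTAAT), the CCAAT box, the TATA box searched as TATAAA, and a C/EBP site (TTNNGNAA, where N is any base).
Alb, chr5:90460750-90460869, plus strand: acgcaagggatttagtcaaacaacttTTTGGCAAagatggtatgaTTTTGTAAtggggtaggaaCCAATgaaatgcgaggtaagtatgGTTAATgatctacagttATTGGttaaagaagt
Gc, chr5:89457899-89458018, minus strand: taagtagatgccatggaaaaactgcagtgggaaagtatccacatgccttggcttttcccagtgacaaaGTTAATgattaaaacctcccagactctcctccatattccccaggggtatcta
Ahsg, chr16:22891895-22892014, plus strand: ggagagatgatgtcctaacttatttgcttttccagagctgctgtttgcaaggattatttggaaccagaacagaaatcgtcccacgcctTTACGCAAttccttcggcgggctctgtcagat
Alb and Gc each hold GTTAAT, which is in 3.00% of the 32851 promoter windows of this length in the RefSeq table. Alb also holds CCAAT on each strand, a motif in 21.3% of windows, and TTNNGNAA at 2 places, and Ahsg holds 1 stretch that matches TTNNGNAA read on either strand; 17.95% of windows hold that motif. TATAAA, in 6.34% of windows, was not in these 3. GENCODE places the start of Ahsg further upstream than RefSeq does, and that of Alb further downstream. The lack of TATAAA therefore holds for these windows alone. These matches are descriptions of sequence and were not tested as sites.

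Alb had 49637, 76278 and 53142 CPM in SS replicates 1, 2 and 3, against 85540, 63496 and 61238 CPM in AS replicates 1, 2 and 3. SS replicate 2 lay above AS replicates 2 and 3, so the groups overlapped. The means were 59685 ± 14476 CPM in SS and 70091 ± 13426 CPM in AS (SD, n = 3 each), a log2 difference of -0.23 ± 0.293 SE (edgeR, adjusted p = 0.762) with a 95% interval of 0.543 to 1.33 as a fold of AS. The value for Alb was -0.074 without AS replicate 1, -0.12 without SS replicate 1 and -0.46 without SS replicate 2. Gc, which encodes the carrier of vitamin D metabolites and a scavenger of free actin, had 6890, 7527 and 5485 CPM in SS and 8594, 8074 and 7478 CPM in AS. Its highest SS library reached just above its lowest AS library. Its change was -0.28 ± 0.263 SE on the log2 scale (edgeR, adjusted p = 0.677), an interval of 0.551 to 1.23 as a fold of AS, and -0.17 without SS replicate 3.

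The relatives of albumin beside it went different ways in value, and neither was called. Afm, which encodes afamin, a vitamin E binding protein, had 499, 526 and 203 CPM in SS and 713, 585 and 583 CPM in AS (log2 change -0.62, edgeR adjusted p = 0.494), and every SS library lay below every AS library. Afp, which encodes the albumin-like carrier of fetal plasma, is nearly silent in adult liver: it had 4.49, 7.83 and 4.15 CPM in SS and 2.65, 2.26 and 3.35 CPM in AS. Every SS library of Afp lay above every AS library, with a log2 difference of 0.99 ± 0.459 SE (edgeR, adjusted p = 0.408). Of 7 tested receptors and recycling genes for albumin and vitamin carriers, none was called (median 0.16). B2m, the light chain that the albumin-salvaging receptor FcRn shares with MHC class I, had the lowest p, with 2591 CPM in SS and 3837 CPM in AS (log2 change -0.57, edgeR adjusted p = 0.425). Of 4 tested vitamin D genes, none was called (median -0.062), with the lowest p in Dhcr7, the enzyme that turns the vitamin D precursor into cholesterol (log2 change -0.53, edgeR adjusted p = 0.484).

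The fetuins, a pair of cystatin-like plasma proteins, lie 18.9 kb apart on chromosome 16, Ahsg at 22891277 to 22899449 and Fetub at 22918334 to 22939778, both on the plus strand. Ahsg encodes fetuin-A, which holds calcium phosphate in soluble particles. It had 7028, 9796 and 6923 CPM in SS and 17911, 10394 and 9471 CPM in AS. SS replicate 2 lay just above AS replicate 3, and AS replicate 1 was 1.80 times the mean of the other AS libraries. The means were 7916 ± 1629 CPM in SS and 12592 ± 4630 CPM in AS, a log2 difference of -0.67 ± 0.324 SE (edgeR, adjusted p = 0.425) with an interval of 0.382 to 1.03 as a fold of AS. Without AS replicate 1 that change was -0.34.

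Fetub encodes fetuin-B, an inhibitor of the zona-cleaving protease ovastacin. It had 726, 685 and 287 CPM in SS, against 972, 596 and 578 CPM in AS. SS replicates 1 and 2 lay above AS replicates 2 and 3, and SS replicate 3 alone lay below all others. The log2 change of -0.34 (SE 0.378, edgeR adjusted p = 0.731) was -0.030 without SS replicate 3 and -0.065 without AS replicate 1, but -0.56 without SS replicate 1 and -0.52 without SS replicate 2. Without either of AS replicate 1 and SS replicate 3 it was 0.26, higher in SS.

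Further along the same cluster, Hrg, Kng2 and Kng1 encode histidine-rich glycoprotein, which binds heme and heparin, and the kininogens, from which bradykinin is cut. None of the 3 was called with all 6 libraries. Hrg had 870, 917 and 584 CPM in SS and 1259, 1380 and 1236 CPM in AS, with every SS library below every AS library (log2 change -0.71, SE 0.273, edgeR adjusted p = 0.320). Hrg was called in a fit without AS replicate 1 and SS replicate 3 (log2 change -0.55, edgeR adjusted p = 0.0464); its adjusted p was 0.235 to 0.687 when single libraries were left out. Kng1 had a log2 change of -0.46 (edgeR adjusted p = 0.549) and Kng2 of -0.15 (edgeR adjusted p = 0.850), and the value of Kng2 was 0.050 without SS replicate 3 and 0.11 with library totals alone.

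**Figure D3:**
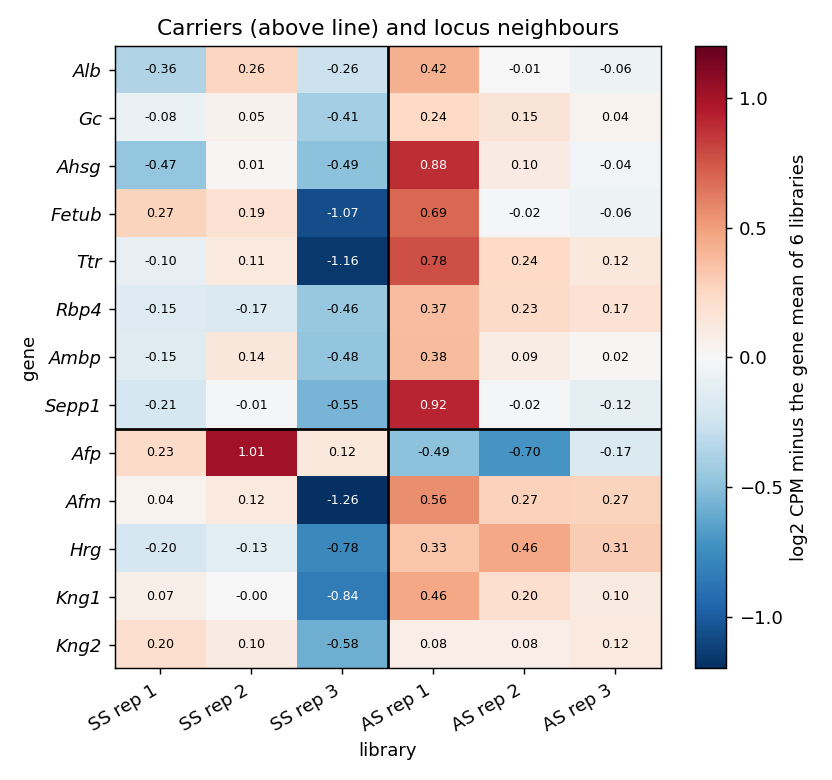
Log2 CPM minus each gene's mean over the 6 libraries (colour and number in each cell), with SS libraries left and AS libraries right of the vertical line, for the 8 carriers (above the horizontal line) and 5 genes of the albumin and fetuin loci (below). AS replicate 1 is the highest library for all 8 carriers, and SS replicate 3 reaches -1.16 for Ttr and -1.07 for Fetub.

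Transthyretin and retinol binding protein travel together in plasma, where transthyretin holds the small retinol carrier back from the kidney and also binds thyroxine. Ttr (chromosome 18, 20665280 to 20674321) had 6090, 7071 and 2932 CPM in SS and 11191, 7710 and 7116 CPM in AS. The SS libraries all lay below the AS libraries, with SS replicate 2 close to AS replicate 3. The means were 5364 ± 2163 CPM in SS and 8673 ± 2202 CPM in AS, a log2 difference of -0.69 ± 0.362 SE (edgeR, adjusted p = 0.453) with an interval of 0.355 to 1.08 as a fold of AS. It was -0.41 without SS replicate 3 and -0.17 without SS replicate 3 and AS replicate 1.

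Rbp4 (chromosome 19, 38116629 to 38125281) had the smallest ratio of highest to lowest library of the 8 within each genotype, 1.24 in SS and 1.15 in AS. It had 2975, 2933 and 2407 CPM in SS and 4270, 3877 and 3724 CPM in AS. All 3 SS libraries lay below all 3 AS libraries by a clear gap. The means were 2772 ± 316 CPM in SS and 3957 ± 281 CPM in AS, a log2 difference of -0.51 ± 0.256 SE (edgeR, adjusted p = 0.431) with an interval of 0.473 to 1.04 as a fold of AS. Its value stayed between -0.57 and -0.24 in all 18 alternatives, and its adjusted p was 0.116 to 0.723. Ttr and Rbp4 were the 2 of 8 carriers with SS wholly below AS; over all genes tested 9.04% were so separated, and among the other genes of at least 500 CPM 42.9% were.

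The genes that store and turn over retinol in the liver gave no call among 9 tested (7 fitted lower, median -0.43). Among 7 tested thyroid hormone genes none was called (median 0.14). Serpina7, which encodes thyroxine-binding globulin, the other main thyroxine carrier, had the lowest p there. It had 35.2, 94.0 and 51.2 CPM in SS and 24.9, 25.0 and 17.99 CPM in AS, every SS library above every AS library (log2 change 1.42, SE 0.358, edgeR adjusted p = 0.116). DESeq2 called Serpina7 (adjusted p = 0.0176), and so did edgeR with no filter on low counts (adjusted p = 0.0366).

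Ambp (chromosome 4, 63143275 to 63154799) encodes a precursor that is cut into alpha-1-microglobulin, a heme-binding lipocalin, and bikunin, the light chain of the inter-alpha-inhibitors. It had 3174, 3859 and 2526 CPM in SS and 4565, 3738 and 3557 CPM in AS. SS replicate 2 lay above AS replicates 2 and 3. The log2 change was -0.31 (SE 0.277, edgeR adjusted p = 0.659), an interval of 0.527 to 1.23 as a fold of AS. It was -0.18 without SS replicate 3 and -0.21 without AS replicate 1. Leaving out SS replicate 2 gave -0.49. None of the 5 genes for heavy chains that bikunin can be joined to, or their relatives, was called (median 0.055). Itih5 had the lowest p, at 16.0, 21.0 and 47.9 CPM in SS and 11.3, 9.18 and 10.5 CPM in AS (log2 change 1.45, edgeR adjusted p = 0.153). Without SS replicate 3 its value was 0.83, and its adjusted p was 0.0956 to 0.489 when single libraries were left out. DESeq2 called Itih5 (adjusted p = 0.0339).

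Sepp1 (chromosome 15, 3268547 to 3280508, annotated as Selenop) encodes selenoprotein P, which carries selenium from the liver to brain, testis and other tissues as selenocysteine. Selenocysteine is read from TGA codons that would otherwise end translation. The longest GENCODE coding sequence of the gene has 380 codons with 10 TGA codons inside the reading frame, the first at codon 59 and the last at codon 377. The last 64 codons, which hold 7 of them, are shown with TGA in capitals because this stretch holds most of the selenocysteine codons.
Sepp1, codons 317 to 380: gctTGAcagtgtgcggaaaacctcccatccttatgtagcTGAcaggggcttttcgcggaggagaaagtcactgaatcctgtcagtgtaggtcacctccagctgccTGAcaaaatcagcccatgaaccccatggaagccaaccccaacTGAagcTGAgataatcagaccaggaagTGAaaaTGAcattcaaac
Sepp1 had 5951, 6803 and 4677 CPM in SS and 12958, 6760 and 6336 CPM in AS. AS replicate 1 was 1.98 times the mean of the other AS libraries, and SS replicate 2 lay above both of those. The means were 5810 ± 1070 CPM in SS and 8684 ± 3707 CPM in AS, a log2 difference of -0.58 ± 0.338 SE (edgeR, adjusted p = 0.496) with an interval of 0.398 to 1.12 as a fold of AS. Without AS replicate 1 the change was -0.18.

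Of 9 tested genes for making selenoproteins none was called (6 fitted lower, median -0.025). Scly, the lyase that recovers selenium from selenocysteine, had the lowest p, with 38.7, 49.5 and 34.0 CPM in SS and 65.6, 66.4 and 70.0 CPM in AS. Every SS library of Scly lay below every AS library (log2 change -0.73, SE 0.236, edgeR adjusted p = 0.237). Of 18 other selenoprotein genes, 1 rose and none fell (median -0.27). That gene was Gpx3, the glutathione peroxidase secreted into plasma, which kidney is known to supply in the main. Gpx3 had 19.9, 36.4 and 24.6 CPM in SS and 7.49, 3.06 and 4.25 CPM in AS, 5.44-fold higher in SS. Its log2 change was 2.44 with an SE of 0.395 (edgeR adjusted p = 0.0209). Its call ended without SS replicate 2, AS replicate 2 or AS replicate 3 (adjusted p = 0.113, 0.120 and 0.109), with AS replicates 2 and 3 summed (0.116) and in limma-voom (0.0524).

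**Figure D4:**
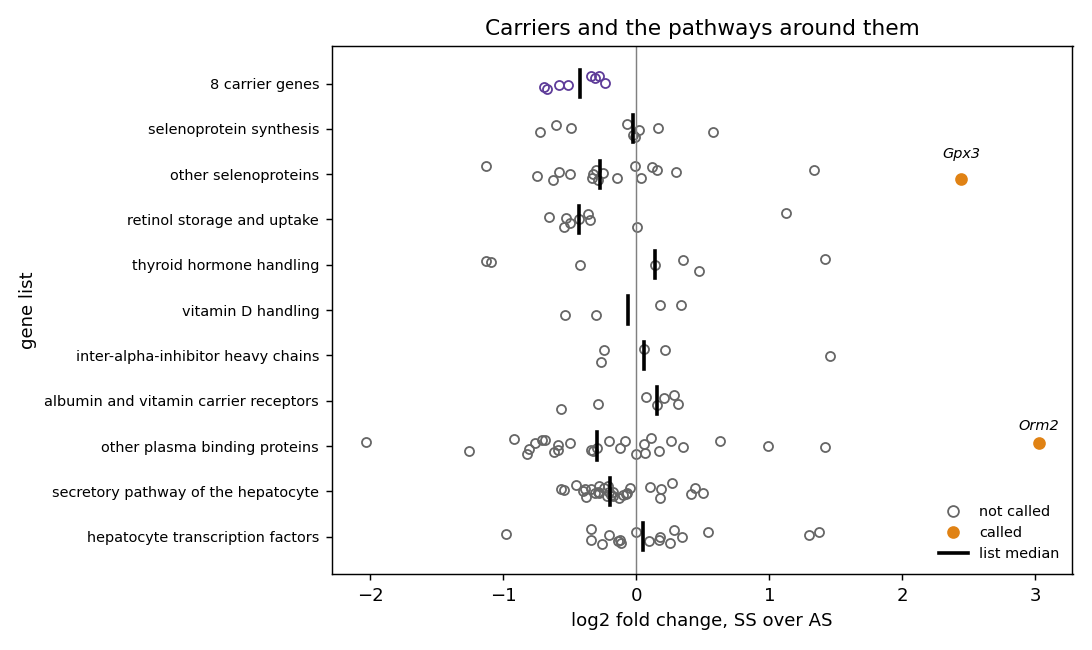
Log2 fold change of SS over AS (horizontal axis) of every tested gene in 10 lists around the carriers, with the 8 carriers on top; black bars are list medians and filled orange points are called genes. Gpx3 and Orm2 are the called genes, and the carriers' median is -0.43.

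Beyond the 8 carriers, 29 other plasma binding proteins were tested, and 1 rose while none fell (19 fitted lower, median -0.30). The called gene was Orm2, an acid glycoprotein of the acute phase that binds basic drugs, with 278, 269 and 171 CPM in SS and 39.5, 27.1 and 21.7 CPM in AS (8.15-fold, log2 change 3.03, SE 0.327, edgeR adjusted p = 0.00218). Of 24 genes listed as acute phase proteins that rise, 4 rose and none fell, where 0.911% of all genes tested rose. The fitted value was lower in SS for 11 of the 24, and the median was 0.057. Saa2 and Saa1, serum amyloid A genes, were 15.96-fold and 16.1-fold higher in SS (edgeR adjusted p = 0.000432 for each). These near copies can share reads. A fit without AS replicate 1 and SS replicate 3, chosen after seeing the data, called 662 of 12716 genes tested. Among them were 7 of the other plasma binding proteins (3 higher and 4 lower in SS). That fit also called 3 of the other selenoproteins (each higher) and 9 of the acute phase genes (8 higher and 1 lower). DESeq2 and edgeR with no filter each called 3 of the other plasma binding proteins, 2 higher and 1 lower in SS. Over all genes, DESeq2 called 453 of 12602 and edgeR with no filter 217 of 18696. None of 18 transcription factors of hepatocytes was called (median 0.050); Prox1 had the lowest p, and its 9.37, 8.19 and 84.7 CPM in SS against 17.6, 11.1 and 12.8 CPM in AS rest on SS replicate 3 (log2 change 1.30, or -0.67 without it). None of 30 genes of the secretory pathway was called (23 fitted lower, median -0.20), with the lowest p in Mcfd2, a cargo receptor subunit (log2 change -0.55, edgeR adjusted p = 0.435).

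Markers of several other cell types were called between the genotypes, where 0.967% of all genes tested were called. At that rate a list of 8 genes would seldom hold a call, so 0 of 8 does not set the carriers apart. The 19 tested hepatocyte genes outside the carriers all had lower fitted values in SS (median -0.50) and none was called. Of 18 tested red cell precursor markers 10 rose, and their summed level was 285 to 554 CPM in SS and 47.2 to 52.3 CPM in AS. Of 20 markers of dividing cells 12 rose (159 to 267 CPM in SS, 27.7 to 33.9 CPM in AS), and of 12 recruited macrophage markers 5 rose (548 to 907 CPM in SS, 299.6 to 425 CPM in AS). The sums of Kupffer cell markers were 830 to 2106 CPM in SS and 680 to 849.6 CPM in AS (1 of 12 called), and of stellate cells 525 to 812 CPM in SS and 390.1 to 454 CPM in AS (3 of 14). Those of bile duct cells were 213 to 325 CPM in SS and 104.5 to 125 CPM in AS (2 of 7), of neutrophils 26.2 to 112 CPM in SS and 3.60 to 8.87 CPM in AS (2 of 7), and of endothelial cells 376 to 619 CPM in SS and 401 to 542 CPM in AS (none of 12). With single libraries left out, 3 to 8 red cell precursor markers, 2 to 9 markers of dividing cells and 1 to 3 recruited macrophage markers were called. Calls numbered 0 to 4 for stellate cells, 0 to 2 for Kupffer cells, 0 to 2 for neutrophils, 1 to 2 for bile duct cells and 0 for endothelial cells. No marker of these 8 lists was at 0 in all libraries. The part of these cells in the carrier values was not tested.

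Most of the extreme values of the carriers fell in 2 libraries, AS replicate 1 and SS replicate 3. AS replicate 1 held the highest value of all 8 carriers, by 1.11 times the mean of the other AS libraries for Gc and up to 1.98 times for Sepp1. Among other genes of at least 500 CPM, 49.3% were highest in AS replicate 1. SS replicate 3 held the lowest value of 7 carriers, all but Alb, at 0.823 times the mean of the other SS libraries for Ahsg and down to 0.408 times for Fetub and 0.446 times for Ttr. Among other genes of at least 500 CPM, 65.3% were lowest in SS replicate 3. Within SS, replicate 2 was highest for 6 carriers and replicate 1 for 2. For Alb the lowest library was SS replicate 1. For Ahsg, SS replicate 1 (7028 CPM) was close to SS replicate 3 (6923 CPM). In a fit that dropped AS replicate 1 together with SS replicate 3, an alternative chosen after seeing the data, the carriers' median was -0.083, Rbp4 was the lowest at -0.37 (edgeR adjusted p = 0.116), Alb stood at 0.012 and again none of 8 was called, against 2.49% of genes called lower in SS.

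**Figure D5:**
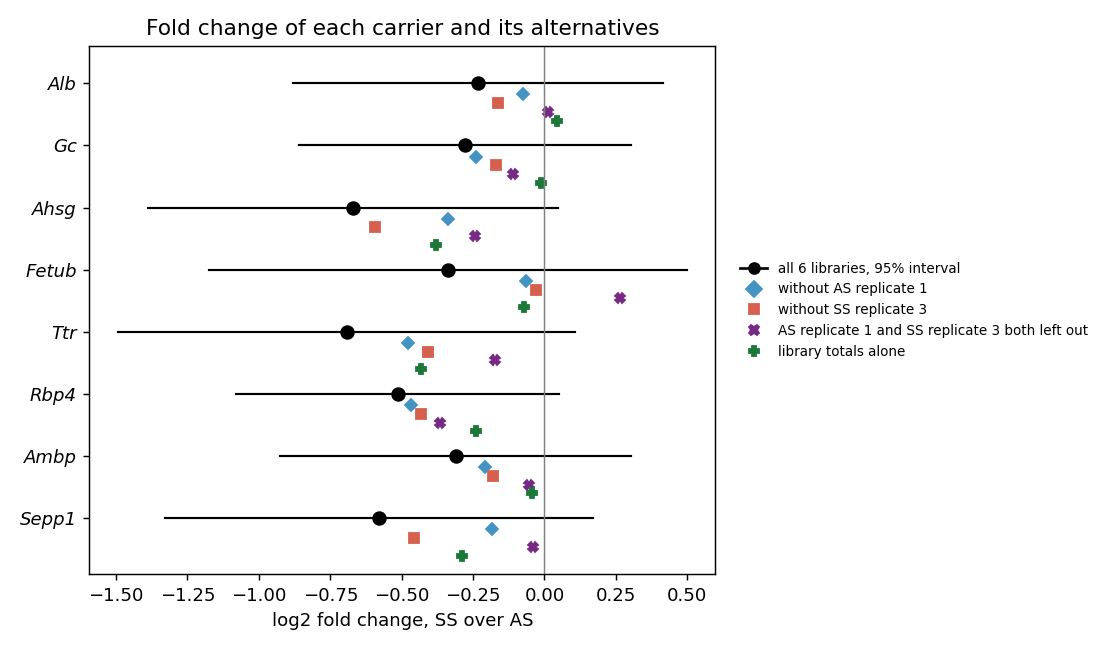
Log2 fold change of SS over AS (horizontal axis) of the 8 carriers with all 6 libraries (black point, line for the 95% interval) and under 4 alternatives (coloured markers below it). All 8 intervals cross 0, and the values without AS replicate 1 and SS replicate 3 run from -0.37 for Rbp4 to 0.26 for Fetub.

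Short transcripts were low in SS replicate 3. Among other genes of at least 100 CPM, the median of log2 CPM minus the gene mean was -0.99 in that library for 174 genes with under 1500 bases of exon, -0.58 for 509 genes of 1500 to under 3000 bases and -0.14 for 777 longer genes. In AS replicate 1 the same medians were 0.45, 0.37 and 0.15, while the other 4 libraries stayed between -0.16 and 0.21. The carriers have 1186 bases of exon (Ttr) to 2842 (Sepp1). The part of transcript length in their values was not tested.

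Ratios of carriers within a library need no scaling factor, and none of 3 chosen pairs separated SS from AS. Rbp4 to Ttr, per kilobase, was 0.431, 0.366 and 0.725 in SS and 0.337, 0.444 and 0.462 in AS. Fetub to Ahsg was 0.116, 0.0783 and 0.0465 in SS and 0.0607, 0.0642 and 0.0684 in AS, so the AS libraries were nearly equal and the SS libraries spread widely. Gc to Alb was 0.176, 0.125 and 0.131 in SS and 0.128, 0.161 and 0.155 in AS. The two-sided exact permutation p-values were 0.6, 0.7 and 0.9 (0.9 each after adjustment over the 3), and 0.1 is the smallest that 3 against 3 can give.

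The pattern over the 6 libraries was compared by the root mean square difference of centred log2 CPM, as a description. Among the carriers, Gc and Ambp were the most alike (0.0815) and Alb and Fetub the least (0.432). Among 1469 other genes of at least 100 CPM, Prkcsh was closest to Alb (0.065) and Cdc37 was also close (0.0797). The closest to Gc was Rab1b (0.0404), to Ahsg Rpl15 (0.095), to Fetub Tmem256 (0.0597), to Ttr Atp5l (0.0415), to Rbp4 Marc1 (0.0299), to Ambp Zfp706 (0.0419) and to Sepp1 Cpt2 (0.0401). None of these 9 genes was called, which adds no evidence because they were picked for likeness to carriers that were not called.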

How the data were processed

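Per the labels and the submitters' processing notes, HISAT2 placed the liver reads on the mm10 build and HTSeq counted them, and the authors deposited raw counts per gene symbol, 1 table per library. Versions, annotation, strand setting and filters are not given in the sources used here, so reads of a gene and of an antisense partner over it cannot be separated. Counter lines for records outside genes (no gene: 43.0% to 53.95% of records in SS, 40.7% to 42.2% in AS) stayed out of library sizes and tests. Reads are not unique molecules, and the Wilson intervals of read shares cover counting error only. The 95% intervals of fold changes come from the edgeR fit and include the variation between libraries.

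Genes were filtered with filterByExpr (minimum count 10, minimum total 15), which kept 99.8% of gene reads, and SS was tested against AS with edgeR 4.0.16 in R 4.3.3 (TMM, robust quasi-likelihood fit, two-sided F-test, Benjamini-Hochberg over all genes tested). CPM use the same factors. The procedure was tested on simulated data whose changes were larger than the fitted changes of the carriers. Detection of changes as small as theirs was not tested. Alternatives were other scalings and filters, a replicate block, a fit that is not robust, single libraries left out, DESeq2 1.42.0 and limma-voom (limma 3.58.1). Leaving out AS replicate 1 with SS replicate 3, and summing AS replicates 2 and 3, were chosen after seeing the data.

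Positions and exon lengths came from GENCODE vM21 (same build), where 23334 symbols matched directly, 667 by an older symbol and 420 not at 1 locus. The members and lists were chosen with earlier results of these data known. Named by rule were the 8 members, 5 genes of their loci, of each pathway list up to 2 called genes or otherwise the gene with the lowest p, and the genes most alike in pattern; some genes that the rule names are not reported here.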

Additional observations from a re-analysis of the deposited data

How the results depend on the processing

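The count of called carriers was 0 in all 18 alternatives, with adjusted p from 0.116 (Rbp4) to 0.983 (Gc). The carriers' median log2 change was -0.43 with all libraries and -0.56 to -0.083 in the alternatives. The spread between libraries (SD 0.393) was nearly as large as the first value, so it cannot tell a kept median from one near 0. The value of -0.083 came without AS replicate 1 and SS replicate 3, where 2 carriers were higher and 6 lower in SS. The count of all called genes, 122, was 217 with no filter, 453 with DESeq2, 31 with limma-voom, 31 with AS replicates 2 and 3 summed, 662 (346 higher and 316 lower in SS) without the pair of AS replicate 1 and SS replicate 3, and 22 to 99 with single libraries left out (22 without AS replicate 1, 26 without SS replicate 2 or AS replicate 2, 38 without AS replicate 3). Library totals alone gave 167 higher and 1 lower. The replicate block gave 460. Deviations of same-numbered libraries correlated at 0.0497, -0.12 and 0.193, and SS replicate 2 correlated best with AS replicate 1, so the numbers were not taken as pairs. Library totals alone turned the sign of Alb (0.043), Kng2 (0.11), Prkcsh (0.027) and Rab1b (0.021), as the factors differ between genotypes. Without AS replicate 1 and SS replicate 3 together, Alb (0.012), Fetub (0.26), Kng2 (0.049), Tmem256 (0.16) and Prox1 (-0.46) changed sign. Single libraries left out gave -0.30 to 0.050 for Kng2 and -0.67 to 1.76 for Prox1. They gave SS minus AS log2 ratios of -0.046 to 0.45 for Rbp4 to Ttr, -0.092 to 0.56 for Fetub to Ahsg and -0.20 to 0.045 for Gc to Alb. Itih5 and Serpina7 were called with the replicate block and not in the same fit without it (adjusted p = 0.0156 and 0.00317). The causes were not tested. Carrier reads ran from 624988 to 1585221 in a library, so counting error was small beside the spread between libraries.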
